A study of Mus musculus with 8 samples.

Results

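The contractile genes of myoepithelial cells were described in cultured mouse mammary epithelium. They were 10 genes chosen by name out of 21893 genes on the array, and all of them were among the 21794 genes with a value on every array. They were covered by 12 of 55681 probes. Mylk and Tpm2 had 2 probes each and the other genes 1. The 8 samples came from virgin wild-type mice of the FVB/N-J strain, with no age stated. They formed 4 groups of 2. Cells labelled as enriched in mammary stem cells (MaSC) or in luminal progenitors (LP) were grown as mammospheres, floating spherical cultures, and harvested after 8 days, either as controls or after interferon-α (IFNα) at 1000 U/ml. The titles carry one surface phenotype for both populations, so the groups were taken from the population and treatment labels. Neither the order of sorting and culture nor separate mice within a group are stated, and p-values then cover only the spread between the samples at hand, which may be technical.

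Myoepithelial cells form the basal layer of the mammary gland and share much of their contractile machinery with smooth muscle. Oxytocin binds its receptor on these cells, calcium rises, myosin light chain kinase phosphorylates the regulatory light chain of myosin, and smooth muscle myosin pulls on actin filaments to eject milk. In smooth muscle many of these genes are driven by serum response factor, which binds a DNA element called the CArG box together with cofactors of the myocardin family. The question here is whether the basal identity of the MaSC cultures includes this contractile programme.

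Promoter sequences are shown because a CArG box is the element through which this gene set is best known to be controlled. Promoters of 300 bases, from 250 before to 50 after the annotated start, were found in RefSeq (GRCm38.p6) for 7 of the 10 genes. Those of Actg2, Myh11 and Tagln were not analysed here. The element was searched as CC, then 6 letters that are A or T, then GG, a pattern that reads as the same pattern on both strands. No matches overlapped. An exact CArG box occurred in 1.63% of 32851 RefSeq promoters of this length, and in 9.98% when 1 of the 6 inner letters could differ. Among the 7 promoters, an exact box was found in that of Myl9, and boxes with 1 differing letter in those of Myl9 and Acta2. The Acta2 promoter (chr19:34255324-34255623, minus strand) and the Myl9 promoter (chr2:156775214-156775513, plus strand) are printed 5′ to 3′ with these matches in capitals.
Acta2: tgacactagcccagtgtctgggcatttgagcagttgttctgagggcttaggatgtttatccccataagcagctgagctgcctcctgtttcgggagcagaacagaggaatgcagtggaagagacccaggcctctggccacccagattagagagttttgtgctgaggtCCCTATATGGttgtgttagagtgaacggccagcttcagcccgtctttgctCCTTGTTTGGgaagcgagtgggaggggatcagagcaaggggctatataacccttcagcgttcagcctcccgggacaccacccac
Myl9: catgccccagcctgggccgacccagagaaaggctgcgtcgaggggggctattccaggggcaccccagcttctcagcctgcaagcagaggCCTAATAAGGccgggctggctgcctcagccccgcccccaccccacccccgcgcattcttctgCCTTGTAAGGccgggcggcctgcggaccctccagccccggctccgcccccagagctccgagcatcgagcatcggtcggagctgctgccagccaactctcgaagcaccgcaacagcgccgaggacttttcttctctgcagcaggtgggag
The matches began at -84 and -34 from the start in Acta2 and at -161 and -99 in Myl9, of which the one at -161 was exact. The windows of Cnn1, Mylk, Tpm2, Lmod1 and Oxtr held no match. A match is a description of these letters and not a measured binding site.

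RNA of each sample (Cy5) was hybridised on 1 Agilent array together with a universal mouse reference RNA (Cy3), a mix of 11 cell lines. Every level below is a log2 ratio of sample to reference as deposited. The centring of the ratios is not stated, so 0 need not be equal signal, and levels cannot be compared between genes because the reference differs for each. Empirical Bayes tests in limma were fitted over all 8 arrays and all genes together, and a gene passed below a Benjamini-Hochberg adjusted p of 0.05. The array of LP control replicate 1 stood apart, with a standard deviation over probes of 0.63 against 1.19 or more on the others, so its ratios lie closer to 0. Results are therefore also given without it. The labelled populations were checked by their markers. Krt5, a basal keratin, was higher in MaSC by 3.78 ± 0.29 (log2 difference ± standard error, adjusted p = 0.0045), while the luminal keratin gene Krt8 stood at -0.88 (adjusted p = 0.15). None of 17 luminal identity genes tested passed in either direction (0 by limma, with 5 at an unadjusted p under 0.05, against 23.2% of all genes), and their median was 0.01. The median was -0.57 with quantile normalization, -0.60 with arrays scaled to the same standard deviation and -0.27 without LP control replicate 1, and without LP control replicate 2, 3 of them passed as higher in MaSC. In the same averaged comparison Kit and Elf5, luminal progenitor genes, stood at 0.98 and 0.73 (adjusted p = 0.55 and 0.41), and neither passed. Leaving out LP control replicate 1 gave -0.032 for Kit and 0.24 for Elf5. They stood at 2.19 and 1.59 in controls (limma adjusted p = 0.47 and 0.37) and at -0.23 and -0.12 with IFNα. Of the 17 luminal differences in the averaged comparison 9 were positive and 8 negative. The lowest p was that of Gata3, at -0.74 ± 0.18 (limma adjusted p = 0.081). Cd14, named after its value was seen, stood at -1.99 (adjusted p = 0.10). In a bulk sample, fewer cells of a type and less RNA per cell cannot be told apart.

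Of the 10 contractile genes 4 passed as higher in MaSC than in LP cultures when both treatments were averaged (4 arrays against 4, taken as independent). These were Myh11, Myl9, Acta2 and Tpm2, and none of the 10 passed as lower. Over all genes 2.34% passed as higher and 1.34% as lower. The median log2 difference of the 10 genes was 1.75, against -0.020 over all genes. For 7 of the 10, all 4 MaSC arrays lay above all 4 LP arrays, which held for 7.58% of all genes. Without LP control replicate 1 the count was again 4, but with Cnn1 in place of Tpm2, and the median was 2.01. The count was also 4 without LP control replicate 2, 2 without MaSC control replicate 1 or MaSC IFNα replicate 1, 1 without MaSC IFNα replicate 2, and 0 without MaSC control replicate 2 or either LP array with IFNα. When each probe was tested alone, adjusted over 55334 probes, those of Acta2 and Myh11 passed as higher (2 of 12, against 0.67% of all probes, with 0.164% lower). The genes of this list were chosen with earlier results of these data known. Replicate 2 minus replicate 1 was alike in MaSC controls and MaSC with IFNα for Acta2 (0.84 and 1.11), Actg2 (1.84 and 2.14), Myl9 (0.88 and 1.04) and Tpm2 (0.43 and 0.45). It changed sign for Myh11, Mylk and Lmod1 only. Whether same-numbered arrays share a preparation is not stated, so the MaSC arrays may hold fewer than 4 independent cultures and the p-values may be too small.

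**Figure D1:**
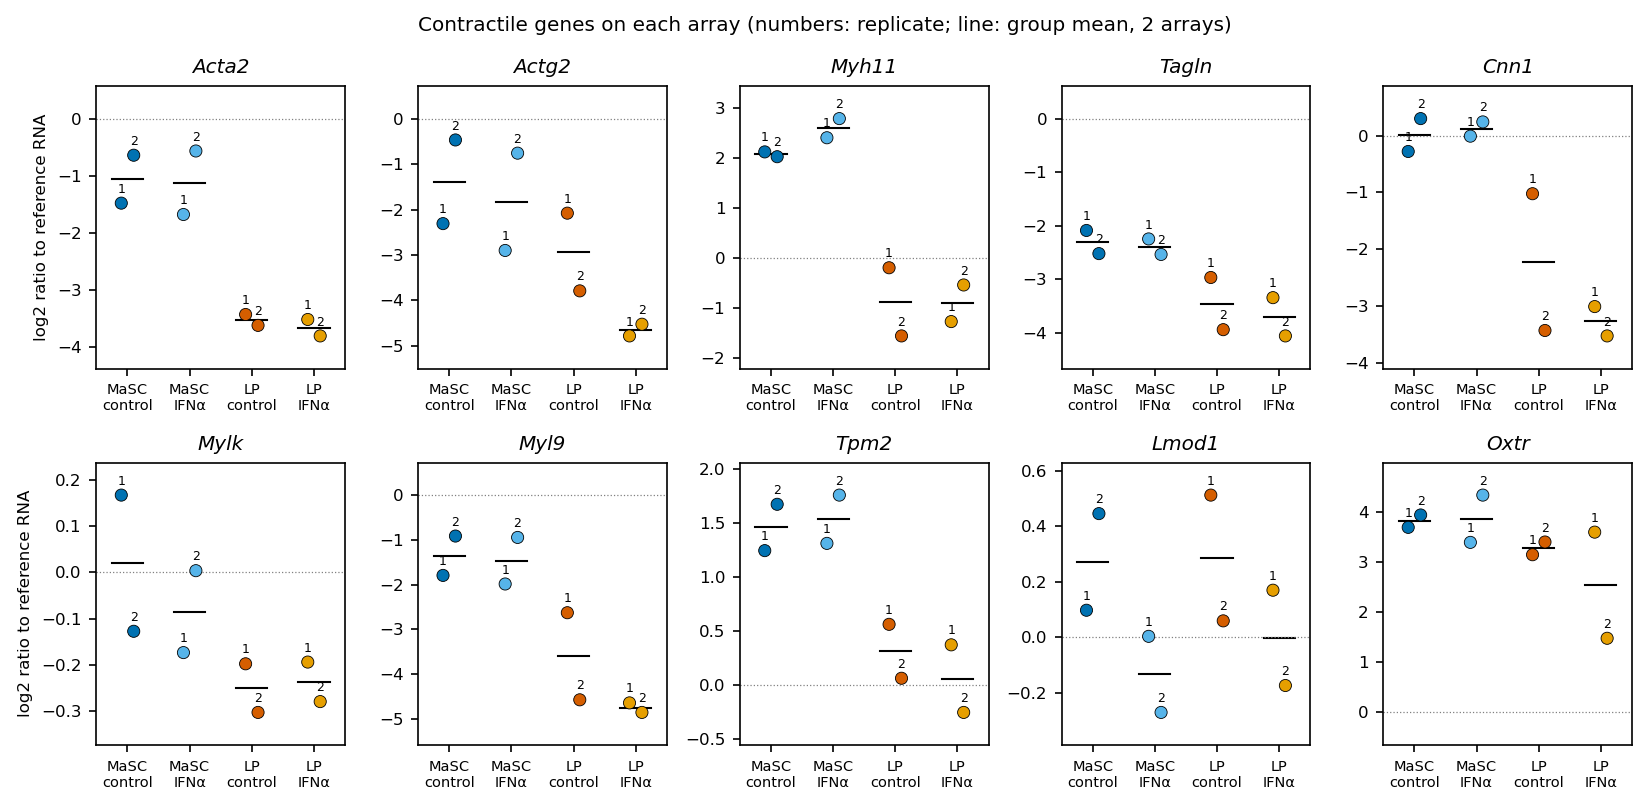
Log2 ratio to the reference RNA (y axis, a separate scale for each gene) of the 10 contractile genes in the 4 groups (x axis). Each point is 1 array, the small number is its replicate and the line is the mean of 2 arrays. The MaSC points of Acta2, Myh11, Cnn1, Myl9 and Tpm2 lie above the LP points, whereas those of Actg2, Lmod1 and Oxtr overlap with them.

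The actins of the contractile filament came first. Acta2, which encodes smooth muscle α-actin and is the standard marker of myoepithelial cells, stood at -1.48 and -0.64 in MaSC controls (replicates 1 and 2), -1.68 and -0.57 in MaSC with IFNα, -3.43 and -3.62 in LP controls and -3.52 and -3.80 in LP with IFNα. All MaSC arrays lay above all LP arrays, by at least 1.75. The averaged difference of 2.50 ± 0.31 (95% interval 1.73 to 3.27, limma adjusted p = 0.019) is 5.66-fold on the linear scale of the ratio, and 2.55 (adjusted p = 0.044) without LP control replicate 1. The call was lost without MaSC control replicate 2 or either LP array with IFNα (adjusted p up to 0.089) and with all arrays scaled to the same standard deviation (3.07, adjusted p = 0.054). The group means of -1.06 and -1.12 in MaSC, and of -3.52 and -3.66 in LP, differed between treatments by less than the spread between replicates.

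Actg2, the γ-actin of smooth muscle, varied widely among replicates. It stood at -2.31 and -0.47 in MaSC controls, -2.90 and -0.76 in MaSC with IFNα, -2.08 and -3.79 in LP controls and -4.78 and -4.52 in LP with IFNα. The groups overlapped, since LP control replicate 1 was above replicate 1 of both MaSC groups. The averaged difference was 2.18 ± 0.69 (95% interval 0.50 to 3.86) and did not pass (limma adjusted p = 0.14, or 0.13 without LP control replicate 1). Smooth muscle actins and their striated counterparts are close relatives in sequence, and whether the probes tell them apart was not tested.

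Next came the motor proteins. Myh11, the smooth muscle myosin heavy chain, stood at 2.13 and 2.03 in MaSC controls, 2.41 and 2.80 in MaSC with IFNα, -0.19 and -1.55 in LP controls and -1.26 and -0.53 in LP with IFNα. Every MaSC value was above 0 and every LP value below it. The averaged difference of 3.23 ± 0.35 (95% interval 2.38 to 4.07, limma adjusted p = 0.012), 9.36-fold on the linear scale, was the largest of the 10, and it was 3.57 (adjusted p = 0.0097) without LP control replicate 1. The call was lost without either replicate 2 array of MaSC or either LP array with IFNα (adjusted p up to 0.062).

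Myl9, the regulatory light chain that is phosphorylated at contraction, stood at -1.80 and -0.92 in MaSC controls, -1.99 and -0.95 in MaSC with IFNα, -2.63 and -4.58 in LP controls and -4.65 and -4.86 in LP with IFNα. All MaSC arrays lay above all LP arrays, and LP control replicate 1 was the LP array nearest to them. The averaged difference was 2.77 ± 0.50 (95% interval 1.54 to 3.99, limma adjusted p = 0.046), and 3.25 (adjusted p = 0.023) without LP control replicate 1. The pass was close to the threshold. It was kept on leaving out either LP control array and lost on leaving out any of the other arrays (adjusted p up to 0.15), and with the highest-mean probe per gene (adjusted p = 0.052) or the trend and robust options (adjusted p = 0.060).

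Mylk encodes myosin light chain kinase, the enzyme that phosphorylates Myl9, and its levels were nearly flat. The mean of its 2 probes was 0.17 and -0.13 in MaSC controls, -0.17 and 0.00 in MaSC with IFNα, -0.20 and -0.30 in LP controls and -0.19 and -0.28 in LP with IFNα. All MaSC arrays lay above all LP arrays, but by a small margin, with an averaged difference of 0.21 ± 0.13 (95% interval -0.12 to 0.54, limma adjusted p = 0.41). The probes disagreed in level by 0.71 to 2.03 across arrays, and neither separated the populations alone, at 0.11 ± 0.19 and 0.31 ± 0.29.

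Among the actin-binding regulators, Tpm2, the β-tropomyosin that lies along the actin filament, stood at 1.25 and 1.67 in MaSC controls, 1.31 and 1.76 in MaSC with IFNα, 0.56 and 0.07 in LP controls and 0.37 and -0.25 in LP with IFNα. All MaSC arrays lay above all LP arrays, and its 2 probes, which agreed on every array within 0.19, gave differences of 1.39 and 1.23. The averaged difference of 1.31 ± 0.23 (95% interval 0.73 to 1.88) passed at a limma adjusted p of 0.045, which was lost on leaving out any 1 of the 8 arrays (adjusted p = 0.063 to 0.15) and with quantile normalization (1.03, adjusted p = 0.12) or scaled arrays (1.00, adjusted p = 0.086).

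Cnn1, the calponin that marks differentiated smooth muscle, stood at -0.28 and 0.30 in MaSC controls, -0.01 and 0.24 in MaSC with IFNα, -1.02 and -3.43 in LP controls and -3.01 and -3.52 in LP with IFNα. The MaSC values stayed close to 0 and all LP arrays lay below them, with LP control replicate 1 apart from the other 3. The averaged difference of 2.81 ± 0.53 (95% interval 1.51 to 4.11) narrowly missed the threshold with all arrays (limma adjusted p = 0.0504). Leaving out each array in turn gave 2.21 to 3.41, with 3.41 without LP control replicate 1. Cnn1 passed with quantile normalization (2.82, limma adjusted p = 0.0033) and with all arrays scaled to the same standard deviation. It did not pass with the highest-mean probe per gene, with empty values kept, with the replicate number as a block or with the trend and robust options.

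Tagln, the actin-binding protein transgelin, stood at -2.09 and -2.52 in MaSC controls, -2.24 and -2.53 in MaSC with IFNα, -2.96 and -3.94 in LP controls and -3.34 and -4.05 in LP with IFNα. Its value was below 0 on every array, and all MaSC arrays lay above all LP arrays by at least 0.43. The averaged difference was 1.23 ± 0.29 (95% interval 0.51 to 1.94) and did not pass (limma adjusted p = 0.081, or 0.060 without LP control replicate 1), but it passed with quantile normalization (1.42, adjusted p = 0.037).

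Lmod1, a leiomodin that nucleates actin filaments in smooth muscle, showed no separation. It stood at 0.10 and 0.45 in MaSC controls, 0.00 and -0.27 in MaSC with IFNα, 0.51 and 0.06 in LP controls and 0.17 and -0.17 in LP with IFNα. The groups overlapped throughout and the averaged difference was -0.07 ± 0.19 (95% interval -0.53 to 0.38, limma adjusted p = 0.85), or 0.04 without LP control replicate 1.

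Oxtr, the oxytocin receptor that starts contraction, had values well above 0 in both populations. It stood at 3.69 and 3.94 in MaSC controls, 3.39 and 4.33 in MaSC with IFNα, 3.14 and 3.40 in LP controls and 3.60 and 1.48 in LP with IFNα. All MaSC controls lay above the LP controls by a small margin, and with IFNα the groups overlapped, with 1 LP array low. The averaged difference was 0.93 ± 0.49 (95% interval -0.27 to 2.14, limma adjusted p = 0.32), and 0.40 (adjusted p = 0.51) without LP IFNα replicate 2. In controls the difference was 0.54 ± 0.70, but -0.61 with quantile normalization and -1.06 with all arrays scaled to the same standard deviation, so its direction in controls was not settled.

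**Figure D2:**
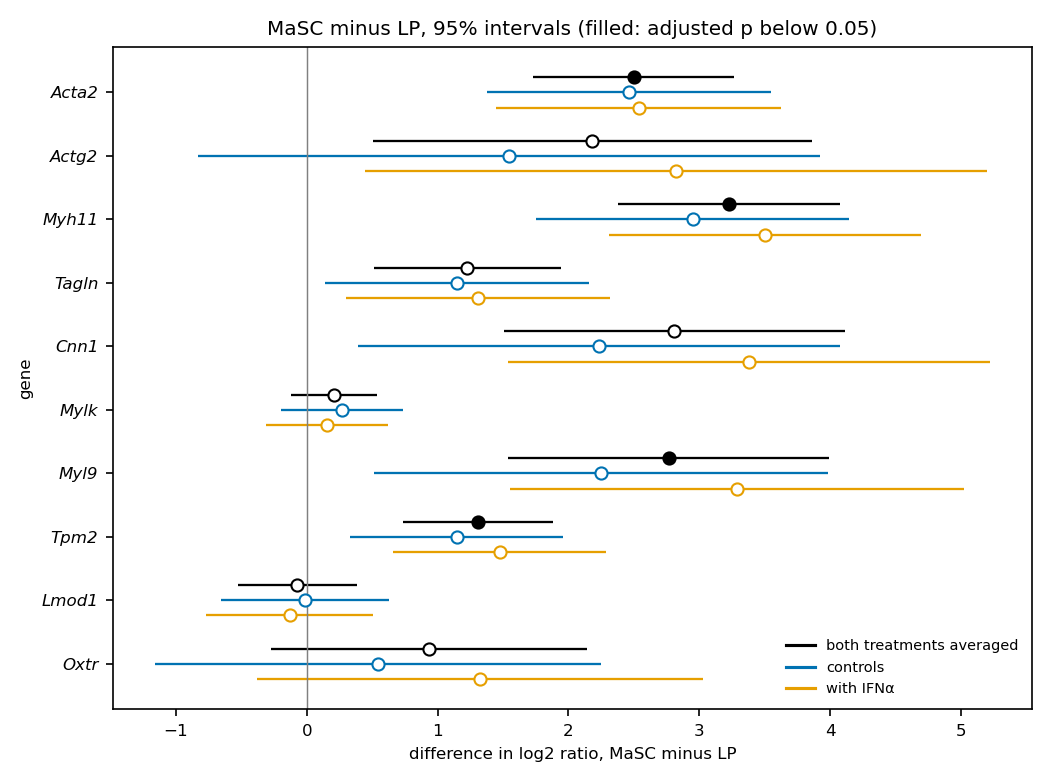
Difference in log2 ratio, MaSC minus LP (x axis), for each contractile gene (y axis) with 95% intervals from limma. Black points average both treatments (4 arrays against 4), blue points are controls and orange points cultures with IFNα (2 against 2 each). Filled points, those of Acta2, Myh11, Myl9 and Tpm2 in the averaged comparison, passed an adjusted p of 0.05, and the points of Mylk and Lmod1 lie near 0.

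Within each treatment, with 2 arrays against 2, none of the 10 genes passed (0 by limma in controls and 0 with IFNα). Of all genes 0.56% passed as higher and 0.0413% as lower in controls, and 0.454% and 0.0505% with IFNα. At an unadjusted p under 0.05 stood 6 of the 10 in controls and 7 with IFNα, against 6.82% and 7.72% of all genes that were higher at that level. The median difference of the 10 genes was 1.35 in controls and 2.01 with IFNα. All MaSC arrays lay above all LP arrays for 8 of the 10 genes in either treatment, against 23.7% of all genes in controls and 21.7% with IFNα. Myh11 stood at 2.95 ± 0.49 in controls (limma adjusted p = 0.091) and 3.50 ± 0.49 with IFNα (adjusted p = 0.058). Without LP control replicate 1, Myh11 and Cnn1 passed with IFNα, both at an adjusted p of 0.032, and no contractile gene passed in controls. That array does not enter the treated groups, and leaving out LP control replicate 2 gave the same values, since only the shared spread changes.

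No contractile gene passed for IFNα in either population (0 by limma in MaSC and in LP). Over all genes 0.229% passed as higher and 0.00459% as lower in MaSC, and 0.33% as higher and 0% as lower in LP. No contractile gene was at an unadjusted p under 0.05, against 4.54% of all genes in MaSC and 7.42% in LP. The same arrays carried the interferon response: Irf7, an interferon-induced transcription factor, rose by 5.83 ± 0.49 in MaSC (limma adjusted p = 0.023) and by 4.78 ± 0.49 in LP (adjusted p = 0.033). All 6 interferon-induced genes rose, by 5.17 to 7.48 in MaSC and by 4.78 to 7.74 in LP, and 4 of them passed in each population. Isg15 rose by 6.70 in MaSC and 6.20 in LP and did not pass (limma adjusted p = 0.075 in both). The contractile genes had a median of -0.07 in MaSC, with 6 of 10 values negative against 58.6% of all genes, and ranged from -0.44 for Actg2 to 0.52 for Myh11. Acta2 stood at -0.06 with a 95% interval from -1.15 to 1.03, so a change of 1 on the log2 scale in either direction was within reach of the error.

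In LP the median change with IFNα was -0.27 and 9 of the 10 values were negative, against 49.6% of all genes. That count depended on the scaling, since 4 of the 10 were positive with quantile normalization and with arrays scaled to the same standard deviation. The largest were -1.72 ± 0.97 for Actg2, -1.15 ± 0.71 for Myl9 and -1.04 ± 0.75 for Cnn1, with limma adjusted p of 0.78, 0.79 and 0.81. These values depended on LP control replicate 1, the array with narrow ratios. Leaving it out gave a median of -0.022, with Actg2 at -0.86, Myl9 at -0.18 and Cnn1 at 0.16. Without LP IFNα replicate 2 the median was -0.05, and without LP control replicate 2 it was -0.66. The difference between the responses (MaSC minus LP) passed for no gene at all (0% of all genes, 0 by limma, with 4.27% at an unadjusted p under 0.05). For the contractile genes it had a median of 0.44, or -0.039 without LP control replicate 1 and -0.027 without LP IFNα replicate 2. Its intervals were wide, from -1.46 to 1.61 for Acta2 and from -2.08 to 4.64 for Actg2.

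**Figure D3:**
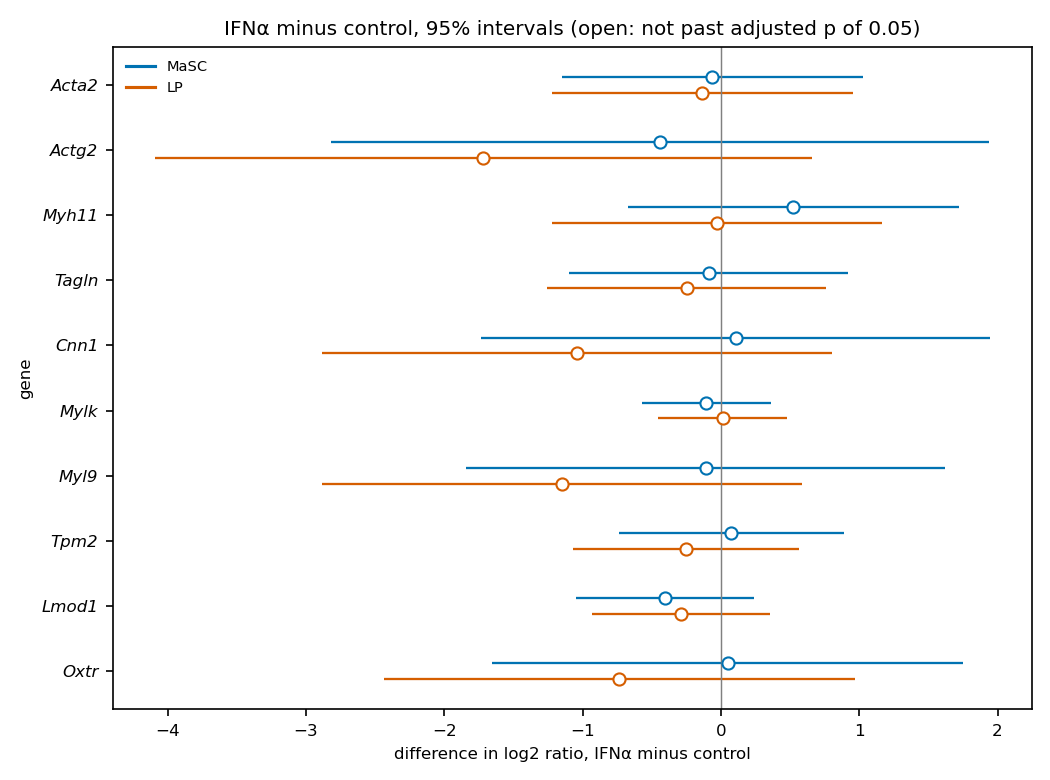
Difference in log2 ratio, IFNα minus control (x axis), for each contractile gene (y axis) in MaSC (blue) and LP (orange), with 95% intervals from limma and 2 arrays against 2. Every interval includes 0, and the lowest value is that of Actg2 in LP at -1.72.

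The contractile genes were read beside other parts of the basal programme. Of 21 basal identity genes tested that are not contractile, 8 passed as higher in MaSC in the averaged comparison and none as lower. Over all genes 2.34% passed as higher and 1.34% as lower. The list median was 1.26, which was 0.57 with quantile normalization and 0.50 with scaled arrays. Of the 21 differences 4 were negative, those of Ltbp2 (-1.79), Itgb1 (-0.68), Itga6 (-0.30) and Lamb3 (-0.05), all named after their values were seen. For Itgb1 (limma adjusted p = 0.19) all MaSC arrays lay below all LP arrays. The 8 higher genes included Snai2, a transcription factor of basal cells, at 5.02 ± 0.54 (limma adjusted p = 0.012), the hemidesmosomal collagen gene Col17a1 at 4.48 ± 0.38 (adjusted p = 0.0059), Krt5 at 3.78, Krt14, the partner keratin of Krt5, at 1.08 ± 0.15 (adjusted p = 0.023) and Trp63, the master regulator of basal identity, at 1.67 ± 0.31 (adjusted p = 0.048). Leaving out LP control replicate 1 left 6 of the 21. The count was 3 to 7 when other arrays were left out, at 3 without either LP array with IFNα, at 4 without MaSC control replicate 2 or either MaSC array with IFNα and at 5 without MaSC control replicate 1. The contractile and the basal counts come from the same arrays, and the difference between the lists was not tested.

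Beside these stood the wider smooth muscle programme. Of 22 other smooth muscle contractile genes none passed (0 by limma, with 6 at an unadjusted p under 0.05, against 23.2% of all genes), and their median was 0.10. The lowest p belonged to Synm, an intermediate filament protein, at 1.05 ± 0.21 (limma adjusted p = 0.058). Without LP control replicate 1, Synm (1.26, adjusted p = 0.027) and Cav1, which encodes the membrane protein caveolin-1 (2.53, adjusted p = 0.0497), passed. Cav1 was named after its value was seen. With quantile normalization 1 passed, and the list median was -0.04. Of 14 genes for serum response factor, its cofactors and partner factors none passed (0 by limma, with 1 at an unadjusted p under 0.05, against 23.2% of all genes). Their median was -0.01. Srf stood at 0.34 ± 0.17 (adjusted p = 0.30), and Myocd, which encodes myocardin, the cofactor that drives smooth muscle genes, at -0.07 ± 0.13 (adjusted p = 0.78). The lowest p was that of Klf4, a factor that opposes smooth muscle differentiation, at 1.56 ± 0.59 (adjusted p = 0.19). Gata6, a factor of vascular smooth muscle named after its value was seen, passed at 1.61 (adjusted p = 0.020) without LP control replicate 1.

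Downstream of the receptor, none of 21 genes of oxytocin signalling and calcium handling passed (0 by limma, with 6 at an unadjusted p under 0.05, against 23.2% of all genes). Their median was 0.04. The lowest p was that of Calm2, a calmodulin gene, at -0.75 ± 0.19 (adjusted p = 0.095). Of 18 non-muscle relatives of the contractile genes 1 passed, as lower in MaSC, against 1.34% of all genes passing as lower. This was Myl12b, the non-muscle counterpart of Myl9, at -1.19 ± 0.18 (limma adjusted p = 0.032), opposite to Myl9. The median of that list was -0.13. The Myl12b call was kept without LP control replicate 1 (-1.29, adjusted p = 0.047) and lost on leaving out any 1 of the other arrays. Actb, cytoplasmic β-actin, lacked a value on at least 1 array and was not tested. Of 22 striated muscle relatives 2 passed as higher in MaSC, against 2.34% of all genes, and the list median was 0.15. They were the cardiac actin gene Actc1 at 1.76 ± 0.26 (limma adjusted p = 0.029) and Myl1, a light chain of fast skeletal muscle, at 1.47 ± 0.16 (adjusted p = 0.013). The count was 3 without LP control replicate 1, the third being the skeletal actin gene Acta1 at 3.00, named after its value was seen. The striated count was 1 without LP control replicate 2, MaSC control replicate 1 or LP IFNα replicate 1, and 0 without any 1 of the remaining arrays.

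**Figure D4:**
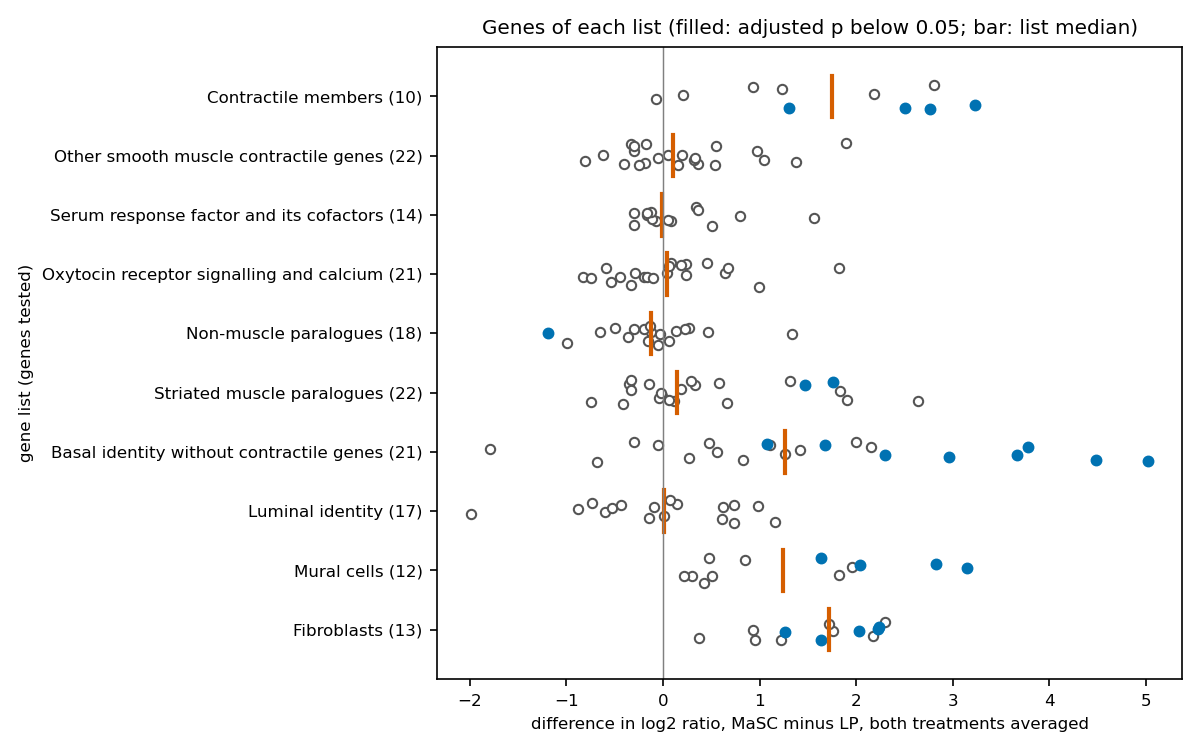
Difference in log2 ratio, MaSC minus LP with both treatments averaged (x axis), of the genes in each list (y axis, number tested in brackets). Each point is 1 gene, filled where the adjusted p was below 0.05, and the bar is the list median. The contractile, basal, mural and fibroblast lists have medians from 1.24 to 1.75, and the other smooth muscle, cofactor, oxytocin and non-muscle lists have medians from -0.13 to 0.10.

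Markers of other cells that carry smooth muscle or matrix genes were also higher in MaSC. Over all genes 2.34% passed as higher and 1.34% as lower. Of 12 mural cell markers 4 passed, with a median of 1.24: the receptor gene Pdgfrb at 3.15 ± 0.41 (limma adjusted p = 0.021), the pericyte gene Rgs5 at 2.83 ± 0.30 (adjusted p = 0.011), the channel subunit gene Abcc9 at 2.04 ± 0.38 (adjusted p = 0.048) and Vtn. Of 13 fibroblast markers 5 passed, with a median of 1.72: the matrix proteoglycan gene Dcn at 2.23 ± 0.19 (adjusted p = 0.0061), Dpt at 2.22, Pdpn at 2.02, Lum and Mmp2. Vtn, Lum and Mmp2 were named after their values were seen. The fibroblast markers Col1a1 and Pdgfra stood at 2.17 and 1.22 (adjusted p = 0.15 and 0.076). Without LP control replicate 1 these counts were 3 and 5. Leaving out other arrays gave 0 to 2 mural and 1 to 4 fibroblast markers, with 0 mural and 1 fibroblast markers without either LP array with IFNα.

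The mean log2 ratio of the mural list ran from 0.58 to 1.25 on MaSC arrays and from -0.75 to -0.17 on LP arrays. The mean of the fibroblast list ran from -0.78 to 0.15 and from -2.20 to -1.61. A level at 0 of a cell type's marker cannot be read from ratios, and the part of such cells in the contractile result was not tested. Between replicates the means of these lists and of the contractile genes moved apart on the MaSC arrays and together on the LP arrays. Single genes did not all follow the mean of their list, and Rgs5 was higher in replicate 2 of the MaSC controls. In MaSC the contractile mean was higher in replicate 2 than in replicate 1, at 0.37 against -0.06 in controls and 0.41 against -0.19 with IFNα. The mural mean was lower in replicate 2, at 0.58 against 1.08 and 0.62 against 1.25, and the fibroblast mean likewise, at -0.58 against 0.15 and -0.78 against 0.03. The basal mean moved with the contractile one, at 2.61 against 2.32 and 2.64 against 2.38. In LP all of them were lower in replicate 2. There the contractile mean was -1.77 against -0.83 in controls and -2.05 against -1.66 with IFNα, the mural mean -0.39 against -0.17 and -0.75 against -0.56, and the fibroblast mean -2.20 against -1.61 and -2.15 against -1.63. The LP basal mean differed little, at 0.96 against 0.98 and 0.93 against 0.95. The narrow ratios of LP control replicate 1 by themselves make negative list means less negative, and their part in the LP control differences was not tested. The contractile genes that differed most between the MaSC replicates were Actg2, by 1.84 in controls and 2.14 with IFNα, Acta2 by 0.84 and 1.11, and Myl9 by 0.88 and 1.04. Tagln went the other way in both groups, by -0.43 and -0.29. Myh11 (-0.10) and Mylk (-0.29) did so in controls only, and Lmod1 (-0.27) with IFNα only. With 2 arrays in a group these differences have no test.

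**Figure D5:**
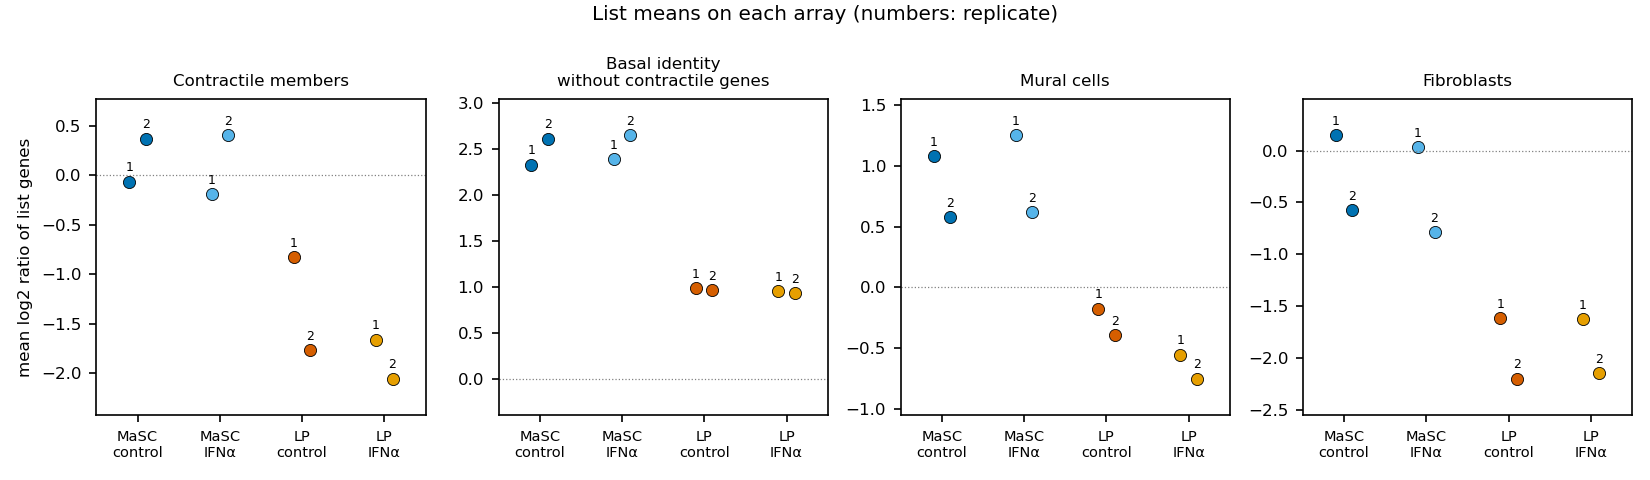
Mean log2 ratio of the genes in 4 lists (y axis, a separate scale for each list) on each array of the 4 groups (x axis). Each point is 1 array and the number is its replicate. In both MaSC groups replicate 2 is the higher array for the contractile and basal lists and the lower one for the mural and fibroblast lists. In both LP groups replicate 2 is the lower array for all 4 lists, by little for the basal list. LP control replicate 1 is the array with narrow ratios.

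Likeness to the contractile genes was measured as the root-mean-square difference of log2 ratios over the 8 arrays, after each gene was centred on its own mean. Among the contractile genes themselves, Myl9 was nearest to Acta2 at 0.58, followed by Tpm2 and Myh11, both at 0.64, and Cnn1 at 0.70. Lmod1 at 1.35 and Mylk at 1.20 were farthest. Of all other genes the 5 nearest to Acta2 were Rcn1, a calcium-binding protein of the endoplasmic reticulum, at 0.20, Clic3 at 0.22, Adcy7, an adenylyl cyclase, at 0.23, Cdk20 at 0.24 and 4930459C07Rik at 0.24. All 5 lay closer to Acta2 than any of its contractile partners. They were picked as the nearest of all other tested genes, so this does not tell how closely Acta2 follows its partners. Nearest to the mean of the 10 genes were the chemokine gene Cxcl12 at 0.16, Flrt1 at 0.17, the secreted protease gene Adamts9 at 0.20, Art4 at 0.20 and Ereg, a ligand of the EGF receptor, at 0.20. A small difference describes these 8 arrays and carries no test.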

How the data were processed

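Total RNA of 8 samples was hybridised to dual-channel arrays. The submitters' processing notes name Feature Extraction 11.0 for quantification. The deposited ratios of sample (Cy5) to reference (Cy3) were read as log2 values. Their base, normalization and centring are not given in the sources used here. The base was taken as 2 from the range of the values, and another base would scale every value without changing the tests. Array medians ran from -0.14 to 0.15. Intensities were not used, so signal over background is unknown, and the number of arrays limits the precision.

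Of 55681 probes 30626 carried 1 gene symbol, 0 several and 25055 none. Probes with values on all arrays (347 lacked one) were averaged by symbol. limma 3.58.1 in R 4.3.3 fitted 1 mean per group over 8 arrays without a replicate block (4 residual and 1.98 prior degrees of freedom), with two-sided tests adjusted by Benjamini-Hochberg over 21794 genes, in 6 comparisons. In simulated data for the averaged population comparison over 21794 genes, calls reached 20% of 50 genes with a log2 shift of 1, 64% with a shift of 2, 80% with 3 and 94% with 5. Of 137 calls, over all shifts together, 8 were false. Whether these shares carry over to the real arrays, 1 of which had narrow ratios, was not tested.

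The members and the 10 other lists were chosen with earlier results of these data known. Named genes were all members, a fixed set of markers, and from each list up to 3 passing genes with the largest averaged population difference, or else the gene with the lowest p. Genes without a value on all arrays were left out. Alternatives were the highest-mean probe per gene, keeping genes with empty values, quantile normalization, scaling of arrays, trend and robust options, the replicate number as a block, fitting only the groups compared, and leaving out each array.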

Additional observations from a re-analysis of the deposited data

How the results depend on the processing

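Each population difference of 0.5 or more kept its direction under every alternative except that of Oxtr in controls, which was -0.61 with quantile normalization and -1.06 with scaled arrays, and Mylk with IFNα stood at -0.016 with the highest-mean probe. Scaling also moved the median of all genes to -0.11 in the averaged comparison and -0.14 in controls, against which its values are read. In controls 3 contractile genes passed with quantile normalization (median 1.92) and 1 with scaled arrays (median 2.29). With IFNα 3 and 2 passed, and the averaged median with scaled arrays was 2.14. The LP response turned positive with quantile normalization and with scaled arrays for Acta2 (0.62 and 1.31), Myh11 (0.028 and 0.0012) and Tagln (0.55 and 1.01). The cause was not tested.

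Leaving out each array in turn gave 0 to 4 passing contractile genes in the averaged comparison (median 1.47 to 2.07), none in controls (median 0.79 to 2.02) and 0 to 2 with IFNα (median 1.60 to 2.53). Lmod1, near 0, ran from -0.19 to 0.040, from -0.24 to 0.21 and from -0.30 to 0.040 in these comparisons. The median response ran from -0.23 to 0.35 in MaSC and from -0.66 to -0.022 in LP, and the difference of responses from -0.039 to 0.69. Responses that turned sign in MaSC were those of Acta2 (-0.62 to 0.49), Actg2 (-1.51 to 0.63), Tagln (-0.30 to 0.13), Cnn1 (-0.18 to 0.40), Mylk (-0.25 to 0.042), Myl9 (-0.63 to 0.41), Tpm2 (-0.15 to 0.30) and Oxtr (-0.42 to 0.52). In LP they were those of Acta2 (-0.28 to 0.0078), Myh11 (-0.71 to 0.65), Tagln (-0.73 to 0.24), Cnn1 (-2.24 to 0.16), Mylk (-0.039 to 0.066), Tpm2 (-0.57 to 0.060) and Oxtr (-1.79 to 0.32). Where an array is left out, the remaining one of its group is assumed to vary like the other groups.

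The differences of replicate 2 minus replicate 1, taken over all genes, correlated at 0.31 between the MaSC groups. They correlated at -0.018 to 0.11 between the other pairs of groups. The labels do not tie the numbers to a shared animal, batch or day, so pairing was not established, and for the MaSC groups the correlation is a hint from the data only. With the replicate number as a block, 3 contractile genes passed in the averaged comparison (Acta2, Myh11 and Tagln, while Myl9 and Tpm2 were lost at limma adjusted p of 0.065 and 0.060), and 0 in the other comparisons, and calls over all genes went from 804 to 1107. The block also gave 1 higher call in the serum response factor list, 1 lower in the luminal list and 10 higher in the fibroblast list. Calls over all genes fell from 110 to 54 with IFNα between populations, from 51 to 12 for IFNα in MaSC and from 72 to 27 in LP. In controls 131 genes passed, against 218 with quantile normalization and 68 with the trend and robust options. Fitting limma to only the groups compared left 0 calls in the 4 comparisons within a treatment or a population. With 1 array left out, calls over all genes were 136 to 781 in the averaged comparison, 0 to 368 in controls, 0 to 165 with IFNα, 0 to 57 for IFNα in MaSC and 0 to 422 in LP. Signal over background was not analysed here, so whether the low ratios of Actg2, Myl9 and Tagln in LP lie above background was not tested.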
